A study of Mus musculus with 18 samples.

Results

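Solute carriers are membrane proteins that move amino acids, sugars, ions, nucleosides, vitamins and metals across the cell surface and the membranes of organelles. Members here are the array probes whose gene symbol has the form Slc, a family number, the letter a and a member number, and whose signal was detected (detection p below 0.05) on all 3 arrays of at least 1 of the study's 6 groups. Of 605 such probes for 327 genes, 253 probes of 180 genes were kept, among 10557 genes tested in all. The 180 genes hold 4 whose products are not carriers although their symbols fit the pattern (Slc4a1ap, Slc7a6os, Slc9a3r1 and Slc9a3r2), which leaves 176 carriers of 47 families. By family, 22 are amino acid carriers (Slc1, Slc3, Slc7 and Slc38), 32 are mitochondrial carriers (Slc25) and 122 belong to other families. A further 147 solute carrier genes had no kept probe, with 209 of the 352 probes not kept detected on no array, 84 on 1 to 3 arrays and 59 on more.

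The samples are CGR8 mouse embryonic stem cells of strain 129P2/Ola, a line derived from the inner cell mass of the early embryo, in 6 groups of 3 arrays each. Every cell line carries a stable, tetracycline (Tc) inducible siRNA: against nucleolin in the lines Ncl-1 and Ncl-2, whose siRNAs are labelled nucleolin-1 and nucleolin-2, and against EGFP, a fluorescent protein foreign to mice, in the control line. Each line was kept for 3 days with Tc (+Tc) or without it (-Tc), so that all groups share the inducible construct and the +Tc groups share the drug. The labels do not say how many clones stand behind a line or whether replicates were separate cultures, so p-values cover only the spread among these arrays, and some of it may be technical. Nucleolin is an abundant protein of the nucleolus with roles in the synthesis of ribosomes, and the title of the study names gene expression regulated by nucleolin as its subject.

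Among the amino acid carriers, the Slc7 family includes cationic amino acid carriers that work alone and light chains that need the heavy chain Slc3a2 to reach the cell surface, while the Slc38 family couples the uptake of glutamine and other neutral amino acids to sodium. Slc25 carriers sit mostly in the inner mitochondrial membrane and exchange metabolites such as carnitine esters, citrate, nucleotides and phosphate between the cytosol and the matrix. When amino acids are short or the endoplasmic reticulum is under stress, cells make more of the transcription factor ATF4, which binds an element of the form TGATGNAA in the promoters of genes for amino acid uptake and synthesis. This element was searched on both strands (TGATGNAA or TTNCATCA) in RefSeq promoter windows of GRCm38.p6 that reach from 250 bases before to 50 bases after a gene's start. It was present in 3.97% of 32851 windows of all genes and in 3.76% of the 186 windows found for 139 of the carriers. By class, it was in 4 of 24 windows of amino acid carriers (genes Slc7a11, Slc1a4 and Slc7a7), 0 of 33 windows of mitochondrial carriers and 3 of 129 windows of other carriers (Slc23a3, Slc49a4 and Slc50a1). A match describes these letters only, and a missing match draws nothing about the factor. The sequences, 5′ to 3′ on the gene's strand with the element in capitals, are those of the windows of Slc7a11, the cystine and glutamate exchanger, and Slc1a4, a neutral amino acid carrier, which hold it, and of Slc38a2 and Slc38a5, neutral amino acid carriers whose signals changed in opposite directions, which do not.
Slc7a11, chr3:50443564-50443863, minus strand: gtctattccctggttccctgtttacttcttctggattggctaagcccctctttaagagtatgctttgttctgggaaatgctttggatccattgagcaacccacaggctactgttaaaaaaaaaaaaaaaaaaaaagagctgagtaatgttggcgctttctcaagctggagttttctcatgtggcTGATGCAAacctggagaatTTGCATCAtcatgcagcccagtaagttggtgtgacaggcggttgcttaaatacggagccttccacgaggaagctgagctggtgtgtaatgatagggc
Slc1a4, chr11:20332664-20332963, minus strand: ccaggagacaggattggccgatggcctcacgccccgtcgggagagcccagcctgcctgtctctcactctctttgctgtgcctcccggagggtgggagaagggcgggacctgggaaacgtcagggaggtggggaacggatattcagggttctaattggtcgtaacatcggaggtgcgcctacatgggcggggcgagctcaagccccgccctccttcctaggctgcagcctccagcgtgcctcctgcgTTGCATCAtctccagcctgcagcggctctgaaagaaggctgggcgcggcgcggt
Slc38a2, chr15:96699679-96699978, minus strand: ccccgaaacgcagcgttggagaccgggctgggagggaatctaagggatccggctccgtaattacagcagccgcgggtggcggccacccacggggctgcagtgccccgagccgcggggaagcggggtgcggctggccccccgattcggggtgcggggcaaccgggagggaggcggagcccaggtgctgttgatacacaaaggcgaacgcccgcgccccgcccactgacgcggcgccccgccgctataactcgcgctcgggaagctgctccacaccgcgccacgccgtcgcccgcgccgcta
Slc38a5, chrX:8271131-8271430, plus strand: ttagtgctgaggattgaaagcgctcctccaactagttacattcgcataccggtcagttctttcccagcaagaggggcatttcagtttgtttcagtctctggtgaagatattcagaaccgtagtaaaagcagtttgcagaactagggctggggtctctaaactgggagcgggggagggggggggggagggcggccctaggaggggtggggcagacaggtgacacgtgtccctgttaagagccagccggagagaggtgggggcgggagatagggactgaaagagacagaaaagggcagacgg

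The Slc7a11 window holds the element on both strands, the first beginning 66 bases before the start site, and the Slc1a4 element begins 4 bases before it. Neither gene passed the test in either nucleolin line.

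Mean raw intensity per array was 280 to 837 units, with replicate 3 of every group between 625 and 837, and 18099 to 21015 probes (40.0% to 46.4%) were detected per array. Signals below are log2 intensities after background correction and quantile normalization, and changes are log2 differences ± the standard error of a limma fit with 6 group means, with p-values adjusted by Benjamini-Hochberg over the 10557 genes tested and called below 0.05. Ncl itself, the targeted gene, changed by -4.67 ± 0.36 (adjusted p = 2.2e-06) in the Ncl-1 line and -4.37 ± 0.36 (adjusted p = 4.18e-06) in the Ncl-2 line by limma, against 0.07 ± 0.36 in the EGFP line. All 8 markers of embryonic stem cells were detected on all arrays. Of the 8 genes of the fibroblast or feeder list, 2 (Thy1 and Vim) were detected on all arrays, and Lum and Dcn on no array. Col1a1, Col1a2, Col3a1 and Postn of that list were not tested. No marker of embryonic stem cells, fibroblasts, primitive endoderm or trophectoderm that was tested (8, 2, 4 and 2 genes) passed the test with Tc in any line. The log2 of the summed signal of the 4 primitive endoderm markers was 9.09 to 10.30 in EGFP -Tc cells. It was lower in the other uninduced lines, at 8.27 to 8.86 in Ncl-1 -Tc and 7.87 to 8.55 in Ncl-2 -Tc cells. With Tc it was 8.78 to 10.39 (EGFP), 8.27 to 9.17 (Ncl-1) and 8.20 to 8.87 (Ncl-2). The log2 of the summed signal of the 2 trophectoderm markers tested ranged over 7.32 to 10.41 in Ncl-1 +Tc and 8.41 to 8.88 in Ncl-1 -Tc cells. It was 8.11 to 10.59 in Ncl-2 +Tc and 8.73 to 9.49 in Ncl-2 -Tc cells. In the control line it was 8.96 to 9.46 in EGFP +Tc and 8.86 to 9.58 in EGFP -Tc cells.

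Replicate 3 went against the line labels of the other replicates. Across the 176 carriers, the difference between Ncl-1 +Tc and Ncl-2 +Tc cells correlated at Pearson r = 0.51 between replicates 1 and 2, but at -0.60 between replicates 1 and 3 and -0.54 between replicates 2 and 3. Over all 10557 genes these values were 0.61, -0.48 and -0.57, and for Ncl-1 -Tc against Ncl-2 -Tc cells they were 0.48, -0.21 and -0.08 (correlations across genes, which are not independent replicates). Of 17 carriers that differed by over 0.5 between Ncl-1 +Tc and Ncl-2 +Tc cells in the same direction in replicates 1 and 2, 16 differed in the opposite direction in replicate 3 and 1 in the same direction, and over all genes 880 of 963 were opposite. The sodium iodide carrier Slc5a5 differed by -2.75 and -0.94 (Ncl-1 +Tc minus Ncl-2 +Tc) in replicates 1 and 2, and by 2.72 in replicate 3. Slc47a1, an exporter of organic cations, differed by 1.79 and 1.40 in replicates 1 and 2 and by -1.17 in replicate 3. Slc38a5 differed by 1.18, 1.47 and -1.31 in the same order. These 3 genes were chosen after their values were seen. The library labels were kept as given, whether the 2 arrays were exchanged between lines was not tested, and the counts of called carriers, by class and over both lines, are also given without both of these +Tc arrays of replicate 3, a setting chosen after seeing the data. The estimate of the mean response of both lines together does not depend on which of the 2 lines an array came from. Its standard error and calls do, since they rest on the spread within the 6 groups.

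Induction of either nucleolin siRNA was followed by changes in single carriers of the amino acid, mitochondrial and other families. In the Ncl-1 line 13 carriers rose and 3 fell with Tc, together 16 of 176, beside 8.12% of all genes tested (5.38% higher and 2.74% lower). In the Ncl-2 line 12 rose and 5 fell, together 17 of 176, beside 9.13% of all genes (6% higher and 3.14% lower), so the carriers were called about as often as other genes in both lines. In the EGFP line 0 carriers passed the test (limma), 0 had an unadjusted p under 0.05, and the changes ranged over -0.47 to 0.51. Of all 10557 genes 0 passed and 13 had an unadjusted p under 0.05. This fit treats differences between replicate numbers as error, which makes small p-values rarer, so the zeros do not show an absence of change. With the replicate number as a block 0 passed too, among carriers and among all genes. The median change of all carriers was -0.02 in the Ncl-1 line, -0.09 in the Ncl-2 line and 0.01 in the EGFP line, beside -0.04, -0.05 and -0.0034 for all genes tested. In bulk RNA, fewer cells of a type and less RNA per cell cannot be told apart. Samples that share a replicate number deviate together, and with that number as a block in the fit 33 carriers rose and 24 fell in the Ncl-1 line (26.7% of all genes called, 14.2% higher and 12.5% lower) and 31 rose and 30 fell in the Ncl-2 line (26.9% of all genes called, 13.9% higher and 13.1% lower). Leaving out single arrays of the Ncl-1 line lowered its count to 8 (-Tc array 2), 7 (-Tc array 3), 10 (+Tc array 1) and 9 (+Tc array 3), where arrays are numbered by replicate. In the Ncl-2 line the counts were 11 (-Tc array 1), 8 (-Tc array 2), 9 (+Tc array 1) and 10 (+Tc array 2). Array weights gave 31 higher and 13 lower in the Ncl-1 line (20.1% of all genes called, 11.9% higher and 8.17% lower) and 25 higher and 30 lower in the Ncl-2 line (26.3%, 13.6% higher and 12.7% lower). The balance of rises and falls depended on the fit. Without both +Tc arrays of replicate 3 of the nucleolin lines, 10 rose and 3 fell in the Ncl-1 line (6.1% of all genes called, 4.41% higher and 1.69% lower) and 13 rose and 5 fell in the Ncl-2 line (9.03%, 6.04% higher and 2.98% lower). The rises include Slc26a9 and Slc4a11 in both lines and Slc23a3 in the Ncl-2 line. These passed the detection filter only through induced nucleolin groups, which favours a rise, so their calls are a description.

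**Figure D1:**
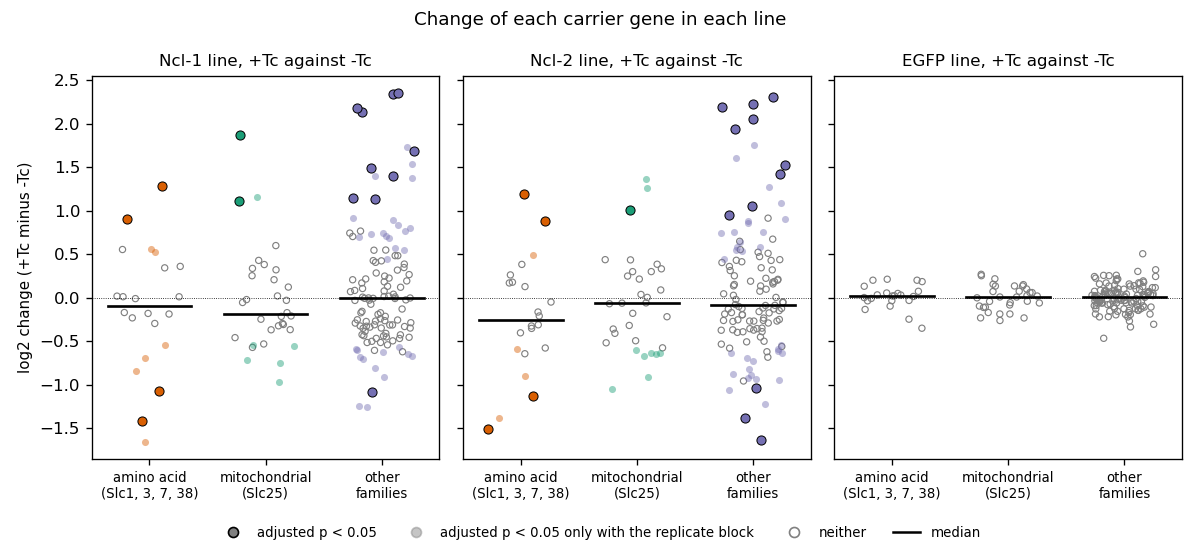
Each point is 1 of 176 carrier genes, with its log2 change (+Tc minus -Tc, vertical axis) by class in the Ncl-1, Ncl-2 and EGFP lines; filled points with a dark edge passed the limma test, pale filled points passed only with the replicate block, open points passed neither, and bars are class medians. Points in the EGFP line lie between -0.47 and 0.51, while those of the nucleolin lines spread over -1.65 to 2.35.

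Among the 22 amino acid carriers, Slc38a5 and Slc7a3 fell and Slc7a4 and Slc38a2 rose in both nucleolin lines, and no other member of the class passed the test in either line. The shares of all genes called were 8.12% in the Ncl-1 line and 9.13% in the Ncl-2 line. In the Ncl-1 line 1 rose and 2 fell without both +Tc arrays of replicate 3, where Slc38a2 was no longer called. The Ncl-2 calls were as before. The class median was -0.09 in the Ncl-1 line (0.17 without Ncl-1 +Tc replicate 3) and -0.26 in the Ncl-2 line. With the replicate block 4 rose and 6 fell in the Ncl-1 line, and 3 rose and 5 fell in the Ncl-2 line. Of all genes 26.7% and 26.9% were called with the block. Slc38a5 carries glutamine, serine and glycine with sodium in exchange for protons. Its log2 signal was 9.45, 9.67 and 8.04 in Ncl-1 +Tc cells, against 10.65, 10.59 and 10.18 in Ncl-1 -Tc cells, and it was 8.27, 8.21 and 9.35 in Ncl-2 +Tc cells, against 9.999, 10.07 and 10.28 in Ncl-2 -Tc cells. In the control line it was 8.94, 9.22 and 9.02 in EGFP +Tc cells, against 9.06, 9.14 and 8.83 in EGFP -Tc cells. All +Tc arrays of each nucleolin line lay below all of its -Tc arrays, and the uninduced nucleolin arrays lay above every EGFP array, while the induced ones lay on both sides of the EGFP values. The change was -1.42 ± 0.37 (adjusted p = 0.0259) in the Ncl-1 line and -1.51 ± 0.37 (adjusted p = 0.0173) in the Ncl-2 line (limma), which left 37.3% and 35.1% of the uninduced signal. Without both +Tc arrays of replicate 3 the changes were -0.91 and -1.88 (adjusted p = 0.0202 and 0.000127). Since Slc38a5 was picked above for its opposed replicate 3 values, leaving those arrays out favours smaller p-values, and these values are a description.

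Slc7a3, a carrier of arginine and lysine, fell in both nucleolin lines. Per array the log2 signal was 12.40, 12.48 and 12.17 in Ncl-1 +Tc cells, against 13.21, 13.44 and 13.60 in Ncl-1 -Tc cells. It was 11.56, 11.98 and 12.53 in Ncl-2 +Tc cells, against 13.12, 13.13 and 13.22 in Ncl-2 -Tc cells, and it was 13.04, 13.24 and 13.59 in EGFP +Tc cells, against 12.95, 13.18 and 13.68 in EGFP -Tc cells. The groups of each nucleolin line did not overlap, while those of the EGFP line did. Slc7a3 changed by -1.07 ± 0.25 (adjusted p = 0.0157) in the Ncl-1 line and -1.13 ± 0.25 (adjusted p = 0.011) in the Ncl-2 line. A dimmer probe of Slc7a3 gave 0.03 and -0.79 and was not called.

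Slc7a4 is a relative of the cationic amino acid carriers whose own transport activity is not established. The arrays measured 7.70, 7.57 and 7.44 in Ncl-1 +Tc cells, against 6.01, 6.67 and 6.18 in Ncl-1 -Tc cells. The Ncl-2 line had 7.42, 7.61 and 7.52 in Ncl-2 +Tc cells, against 6.22, 6.29 and 6.47 in Ncl-2 -Tc cells, and the EGFP line had 7.34, 7.02 and 7.03 in EGFP +Tc cells, against 7.25, 7.14 and 6.96 in EGFP -Tc cells. In contrast to Slc38a5, its uninduced nucleolin lines lay below every EGFP array, and with Tc it rose above every EGFP array. The change was 1.28 ± 0.19 (adjusted p = 0.000615) in the Ncl-1 line and 1.19 ± 0.19 (adjusted p = 0.00113) in the Ncl-2 line, or 2.43-fold and 2.28-fold.

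Slc38a2 takes up alanine, glutamine and other small neutral amino acids and is known to be made in larger amounts when amino acids are short. Its log2 signal was 12.47, 12.37 and 12.82 in Ncl-1 +Tc cells, against 11.99, 11.62 and 11.35 in Ncl-1 -Tc cells. The Ncl-2 line gave 12.72, 12.47 and 12.59 in Ncl-2 +Tc cells, against 11.92, 11.59 and 11.61 in Ncl-2 -Tc cells, and the EGFP line gave 11.66, 11.64 and 11.51 in EGFP +Tc cells, against 11.70, 11.77 and 11.34 in EGFP -Tc cells. The 6 induced nucleolin arrays lay above all 12 others. The change was 0.90 ± 0.21 (adjusted p = 0.0125) in the Ncl-1 line and 0.88 ± 0.21 (adjusted p = 0.0136) in the Ncl-2 line, or 1.87-fold and 1.85-fold. Without both +Tc arrays of replicate 3 the Ncl-1 call was lost (0.77, adjusted p = 0.0697), and a dimmer probe of Slc38a2 gave -0.32 ± 1.26 and 0.65 ± 1.26 with its wide error.

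Of these calls, those of Slc7a4 held in both lines without each array in turn. Slc38a5 lost its Ncl-1 call without -Tc array 1 or 2 or +Tc array 3 of that line, and its Ncl-2 call without -Tc array 2 or 3 or +Tc array 1 or 2 of that line (highest adjusted p = 0.102 and 0.0836). Slc7a3 lost its Ncl-1 call without -Tc array 2 or 3 or +Tc array 3 of that line and its Ncl-2 call without Ncl-2 +Tc replicate 1 (highest 0.0649 and 0.0647). Slc38a2 lost its Ncl-1 call without array 3 of either group, and its Ncl-2 call without -Tc array 2 or +Tc array 1 of that line (highest 0.0615 and 0.0639). Slc38a5 changed by -0.91 without Ncl-1 +Tc replicate 3.

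Slc38a1, a close relative of Slc38a2 that also carries glutamine, was lower with Tc within each replicate number of both nucleolin lines. The log2 signal of Slc38a1 was 6.11, 6.73 and 5.56 in Ncl-1 +Tc cells, against 8.38, 8.34 and 6.64 in Ncl-1 -Tc cells. It was 7.46, 7.50 and 4.86 in Ncl-2 +Tc cells, against 8.54, 8.58 and 6.86 in Ncl-2 -Tc cells, and it was 8.23, 7.97 and 6.87 in EGFP +Tc cells, against 8.20, 8.24 and 6.54 in EGFP -Tc cells. Replicate 3 was dimmer in every group, so the groups overlapped. The change was -1.65 ± 0.74 (adjusted p = 0.22) in the Ncl-1 line and -1.39 ± 0.74 (adjusted p = 0.326) in the Ncl-2 line, and with the replicate block both passed the test (adjusted p = 0.000357 and 0.00141). Slc38a9, an arginine sensor of the lysosome, changed by 0.53 ± 0.22 (adjusted p = 0.177) and 0.49 ± 0.22 (adjusted p = 0.219) and passed only with the block (adjusted p = 0.0143 and 0.0215). Both genes were named after their values were seen.

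Slc3a2, the heavy chain that brings Slc7 light chains to the cell surface, was lower with Tc in each replicate number of both nucleolin lines. Array values were 5.30, 5.27 and 6.55 in Ncl-1 +Tc cells, against 5.62, 5.93 and 7.21 in Ncl-1 -Tc cells. The Ncl-2 line had 4.76, 5.15 and 6.97 in Ncl-2 +Tc cells, against 5.96, 6.19 and 7.41 in Ncl-2 -Tc cells, and the EGFP line had 5.75, 6.34 and 7.29 in EGFP +Tc cells, against 5.65, 5.60 and 7.53 in EGFP -Tc cells. Replicate 3 was brighter in every group, and the +Tc and -Tc arrays of each line overlapped. The Slc3a2 probe was dim, detected on 2 of 3 Ncl-2 +Tc arrays and on all arrays of every other group. The change was -0.55 ± 0.68 (adjusted p = 0.774) in the Ncl-1 line and -0.90 ± 0.68 (adjusted p = 0.555) in the Ncl-2 line, which does not pass the test, and with the replicate block both did (adjusted p = 0.0481 and 0.00294). Slc7a11, a light chain of Slc3a2, was near the limit of detection, with 1 array detected in Ncl-1 +Tc cells, 1 in Ncl-1 -Tc cells, 1 in Ncl-2 +Tc cells and 2 in Ncl-2 -Tc cells, and gave 0.01 ± 0.35 and -0.32 ± 0.35. Slc1a4 gave -0.19 ± 0.37 in the Ncl-1 line and -0.40 ± 0.37 in the Ncl-2 line. Slc7a1, a widely expressed arginine carrier, and Slc1a5, a glutamine carrier, had no kept probe, with their best probes detected on 10 and 9 of 18 arrays, and Slc7a5 was not analysed here.

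**Figure D2:**
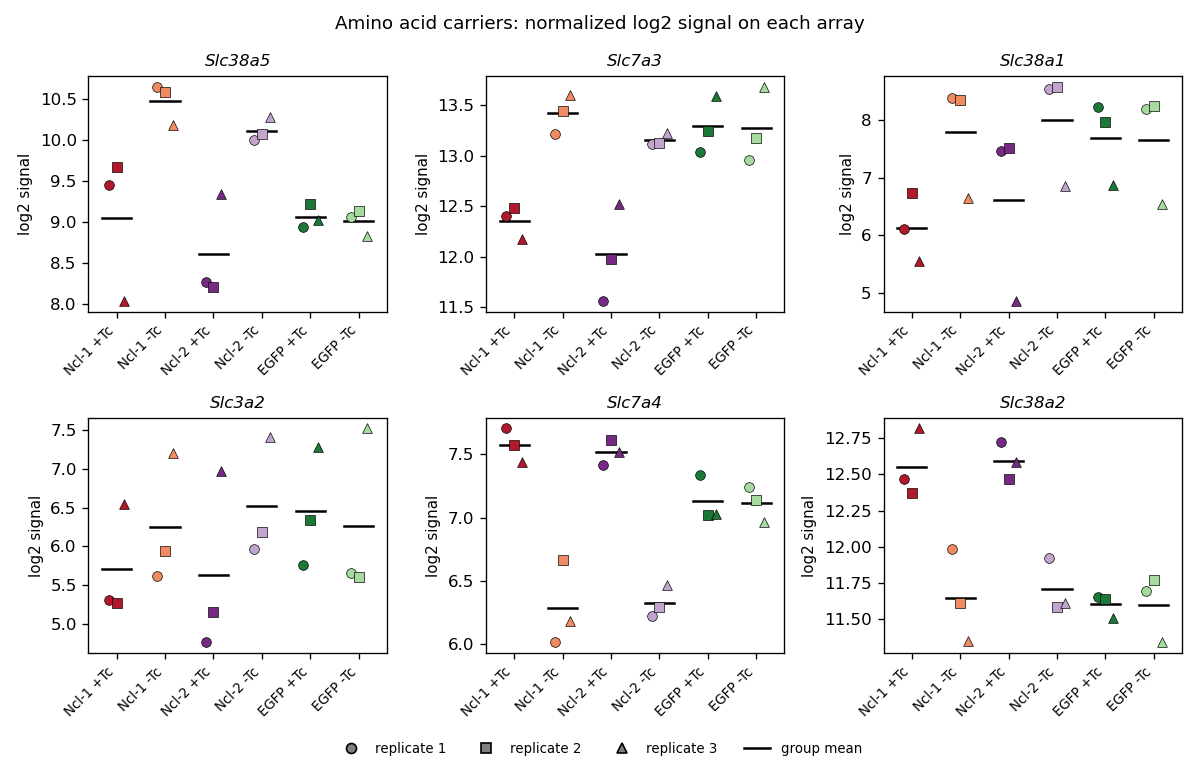
Normalized log2 signal (vertical axis) of 6 amino acid carriers on each of 18 arrays in the 6 groups, with circles, squares and triangles for replicates 1, 2 and 3 and a bar for the group mean. Slc38a5 and Slc7a3 lie lower and Slc7a4 and Slc38a2 higher with Tc in both nucleolin lines, while triangles lie apart from the other replicates for Slc38a1 and Slc3a2.

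Of the 32 Slc25 carriers, 2 rose and 0 fell in the Ncl-1 line and 1 rose and 0 fell in the Ncl-2 line, or 1 and 0 rises without both +Tc arrays of replicate 3. Over all genes tested 8.12% and 9.13% were called in these lines with all arrays. With the block 3 rose and 5 fell in the Ncl-1 line, and 3 rose and 7 fell in the Ncl-2 line, beside 26.7% and 26.9% of all genes called. The class median was -0.19 and -0.07. The rises were those of Slc25a20, which brings acylcarnitines into mitochondria for fatty acid oxidation, and Slc25a42, which carries coenzyme A into the matrix. Slc25a20 had a log2 signal of 13.73, 13.30 and 12.98 in Ncl-1 +Tc cells, against 12.70, 12.27 and 11.71 in Ncl-1 -Tc cells. It had 13.35, 13.25 and 12.97 in Ncl-2 +Tc cells, against 12.48, 12.04 and 12.01 in Ncl-2 -Tc cells, and it had 11.95, 11.35 and 11.08 in EGFP +Tc cells, against 11.56, 11.53 and 10.99 in EGFP -Tc cells. The values fell into 3 tiers, with induced nucleolin lines highest, uninduced nucleolin lines next and EGFP cells lowest, the tiers not overlapping within any replicate number. The change was 1.11 ± 0.30 (adjusted p = 0.0326) in the Ncl-1 line and 1.01 ± 0.30 (adjusted p = 0.0476) in the Ncl-2 line, 2.16-fold and 2.01-fold, and a second probe gave 1.27 ± 0.49 and 1.32 ± 0.49. The Ncl-1 call was lost without -Tc array 2 or 3 or +Tc array 1 or 2 of that line (highest adjusted p = 0.141). The Ncl-2 call was lost without 11 of 18 arrays, namely any Ncl-2 array, replicate 2 of either Ncl-1 group, EGFP -Tc replicates 1 or 2 and EGFP +Tc replicate 2 (highest 0.159), and also without both +Tc arrays of replicate 3 (0.0538).

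Slc25a42 had a log2 signal of 8.35, 7.63 and 7.87 in Ncl-1 +Tc cells, against 6.93, 5.71 and 5.58 in Ncl-1 -Tc cells. It had 8.50, 7.71 and 7.50 in Ncl-2 +Tc cells, against 7.52, 6.10 and 6.30 in Ncl-2 -Tc cells, and it had 7.62, 6.21 and 6.07 in EGFP +Tc cells, against 7.07, 6.52 and 5.66 in EGFP -Tc cells. The groups did not overlap in the Ncl-1 line and did in the Ncl-2 line, with a change of 1.87 ± 0.52 (adjusted p = 0.035) in the first and 1.27 ± 0.52 (adjusted p = 0.164) in the second (adjusted p = 0.000444 with the block). Dropping -Tc array 2 or 3 or any +Tc array of the Ncl-1 line ended its call there (highest adjusted p = 0.132), as did leaving out both +Tc arrays of replicate 3 (0.0885).

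Further Slc25 members passed the test in both lines only with the replicate block, and are named here after their values were seen. Slc25a17, which despite its family serves peroxisomes with coenzyme A and related cofactors, was the one that rose. Its log2 signal was 9.90, 10.79 and 11.87 in Ncl-1 +Tc cells, against 8.76, 9.51 and 10.81 in Ncl-1 -Tc cells. The Ncl-2 line gave 10.32, 10.68 and 12.02 in Ncl-2 +Tc cells, against 8.58, 9.51 and 10.84 in Ncl-2 -Tc cells, and the EGFP line gave 9.72, 9.59 and 11.38 in EGFP +Tc cells, against 9.63, 9.65 and 11.36 in EGFP -Tc cells. It changed by 1.16 ± 0.75 in the Ncl-1 line and 1.37 ± 0.75 for Ncl-2 (adjusted p = 0.443 and 0.34, or 0.000467 and 0.000106 with the block), and was higher with Tc in 3 of 3 replicate numbers of each line.

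Slc25a33, a carrier of pyrimidine nucleotides, changed by -0.72 ± 0.50 in the Ncl-1 line and -1.05 ± 0.50 for Ncl-2 (adjusted p = 0.00289 and 0.00013 with the block). Slc25a10, which exchanges dicarboxylates for phosphate, changed by -0.54 ± 0.38 and -0.67 ± 0.38 (0.0261 and 0.00771 with the block). Slc25a25, which carries ATP with magnesium, changed by -0.56 ± 0.22 and -0.63 ± 0.22 (0.0329 and 0.0177). All 3 were lower with Tc in the nucleolin lines, and Slc25a1, the citrate carrier, was called with the block in the Ncl-2 line only, at -0.91 ± 0.32 (0.00424) beside -0.57 ± 0.32 in the Ncl-1 line (0.0542), a difference between lines that was not past the test. Slc25a15, the ornithine carrier, gave -0.46 ± 0.24 and -0.64 ± 0.24 (adjusted p = 0.051 and 0.00928 with the block). The phosphate carrier Slc25a3 gave 0.34 ± 0.70 and 0.33 ± 0.70, and the ADP/ATP carrier Slc25a5 gave -0.32 ± 0.18 and -0.18 ± 0.18, neither past the test with or without the block; Slc25a4 had no kept probe. Of 12 further mitochondrial membrane carriers and channels outside the Slc genes, such as the Vdac porins and the pyruvate carrier subunits, 7 were tested and 0 passed in either line, or 0 in the Ncl-1 line and 2 lower in the Ncl-2 line with the block.

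**Figure D3:**
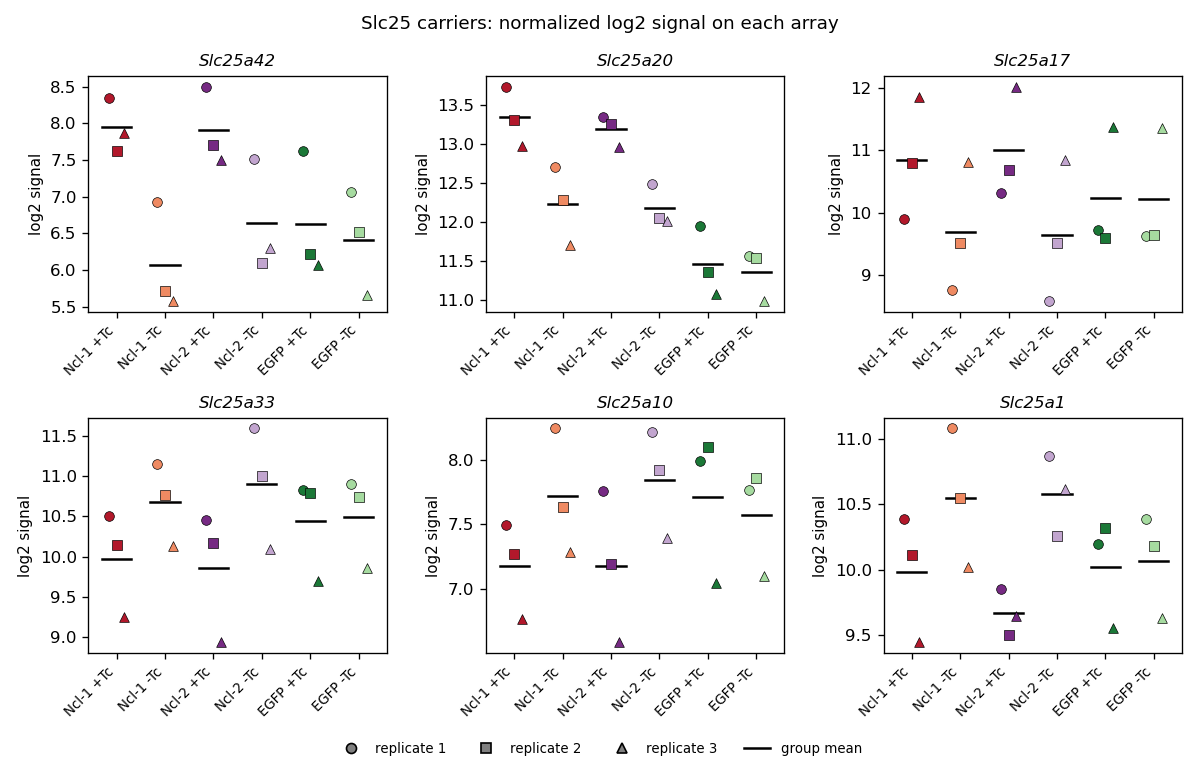
Normalized log2 signal (vertical axis) of 6 Slc25 carriers on each of 18 arrays in the 6 groups, with circles, squares and triangles for replicates 1, 2 and 3 and a bar for the group mean. Slc25a20 and Slc25a42 lie higher with Tc in the nucleolin lines, and for Slc25a17 the same step is seen within each replicate number while the replicates lie apart.

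Of the 122 carriers of other families, 9 rose and 1 fell in the Ncl-1 line and 9 rose and 3 fell in the Ncl-2 line, with medians of -0.0049 and -0.08. Over all genes 8.12% were called in the Ncl-1 line (5.38% higher and 2.74% lower) and 9.13% in the Ncl-2 line (6% and 3.14%). This class was thus called about as often as other genes. Leaving out both +Tc arrays of replicate 3 gave 8 rises and 1 fall in the Ncl-1 line, and 11 rises and 3 falls in the Ncl-2 line. Of all genes 6.1% and 9.03% were then called. With the block 26 rose and 13 fell in the Ncl-1 line, beside 14.2% of all genes higher and 12.5% lower. In the Ncl-2 line 25 rose and 18 fell with the block, beside 13.9% and 13.1%. The same shares of all genes apply to the counts of the subgroups below. The 21 ion and pH carriers held 3 rises in the Ncl-1 line and 4 in the Ncl-2 line, beside 5.38% and 6% of all genes. They held 0 falls, beside 2.74% and 3.14%. In each line 2 of the rises, Slc26a9 and Slc4a11, passed the detection filter only through induced nucleolin groups, which favours a rise. Without both +Tc arrays of replicate 3 there were 4 and 5 rises, with Slc4a3 and Slc26a2 added, beside 4.41% and 6.04%. The largest rise was that of Slc26a9, a chloride channel and transporter of epithelia. The arrays gave 7.41, 6.58 and 6.88 in Ncl-1 +Tc cells, against 4.78, 4.63 and 4.44 in Ncl-1 -Tc cells. The values were 6.92, 6.43 and 7.07 in Ncl-2 +Tc cells, against 4.45, 4.42 and 4.62 in Ncl-2 -Tc cells, and 4.47, 4.65 and 4.61 in EGFP +Tc cells, against 5.21, 4.72 and 4.71 in EGFP -Tc cells. Its probe was detected on all 6 induced nucleolin arrays, on 0 of the 6 uninduced nucleolin arrays and on 1 of 6 EGFP arrays. The rise was therefore at least 3.50-fold in the Ncl-1 line and at least 3.11-fold for Ncl-2, taking the dim arrays at no less than the lowest detected signal on each. Slc26a9 passed the detection filter only through the induced nucleolin groups, as did 9 other carriers. The filter favours a rise in such members, so the calls of Slc26a9 in both lines are a description. A second probe of Slc26a9 gave 1.64 ± 0.32 and 1.58 ± 0.32.

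Slc4a8, an exchanger that brings in bicarbonate with sodium, rose on all induced nucleolin arrays. On the arrays Slc4a8 measured 8.91, 9.14 and 9.98 in Ncl-1 +Tc cells, against 7.34, 7.60 and 8.04 in Ncl-1 -Tc cells. Values were 9.59, 9.57 and 9.26 in Ncl-2 +Tc cells, against 7.41, 7.62 and 7.58 in Ncl-2 -Tc cells, and 7.64, 7.50 and 8.32 in EGFP +Tc cells, against 7.16, 7.96 and 8.31 in EGFP -Tc cells. The change was 1.68 ± 0.33 (adjusted p = 0.00475) in the Ncl-1 line and 1.94 ± 0.33 (adjusted p = 0.00155) in the Ncl-2 line, with further probes in the same direction. Slc4a11, a related membrane protein needed in the cornea, had a wider spread between replicates. Its signal in log2 units was 8.42, 7.50 and 6.56 in Ncl-1 +Tc cells, against 5.89, 5.47 and 4.56 in Ncl-1 -Tc cells. It was 8.53, 7.73 and 6.31 in Ncl-2 +Tc cells, against 5.87, 5.38 and 4.75 in Ncl-2 -Tc cells, and 6.37, 5.96 and 5.07 in EGFP +Tc cells, against 5.97, 6.72 and 4.84 in EGFP -Tc cells. The change was 2.18 ± 0.63 (adjusted p = 0.0438) and 2.19 ± 0.63 (adjusted p = 0.0399), and within each replicate number the induced arrays lay above the uninduced ones. Slc4a11 too passed the detection filter only through the induced nucleolin groups, with 2 of 3 arrays detected in each of the other groups. Its calls are therefore a description. Its call was lost without 10 of 18 arrays in the Ncl-1 line and 9 in the Ncl-2 line (highest adjusted p = 0.176 and 0.189). Array 2 of each nucleolin group, EGFP -Tc array 1 and EGFP +Tc array 2 ended the call of either line, EGFP +Tc array 1, Ncl-1 -Tc arrays 1 and 3 and Ncl-1 +Tc array 1 that of the Ncl-1 line, and Ncl-2 -Tc arrays 1 and 3 and Ncl-2 +Tc array 1 that of the Ncl-2 line. Slc12a8, of the cation and chloride cotransporter family, changed by 0.84 ± 0.25 (adjusted p = 0.0568) in the Ncl-1 line (0.00681 with the block) and 0.95 ± 0.25 (adjusted p = 0.0273) in the Ncl-2 line; the Ncl-2 call was lost without any Ncl-2 array but +Tc replicate 3 (highest 0.118).

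Slc34a3, a sodium and phosphate cotransporter best known from the kidney, rose in both nucleolin lines. Log2 signals of Slc34a3 were 8.50, 7.91 and 8.20 in Ncl-1 +Tc cells, against 5.11, 6.18 and 6.28 in Ncl-1 -Tc cells. The Ncl-2 line gave 8.42, 8.22 and 8.17 in Ncl-2 +Tc cells, against 5.90, 6.02 and 6.20 in Ncl-2 -Tc cells, and 6.33, 6.38 and 6.25 in EGFP +Tc cells, against 6.50, 6.14 and 6.11 in EGFP -Tc cells. The 6 induced nucleolin arrays lay above all 12 others, which ranged over 5.11 to 6.50. The change was 2.35 ± 0.27 (adjusted p = 6.55e-05) in the Ncl-1 line and 2.22 ± 0.27 (adjusted p = 9.7e-05) in the Ncl-2 line, 5.09-fold and 4.67-fold. Slc37a2, a sugar phosphate exchanger of the endoplasmic reticulum, had a similar pattern at a smaller size. The Slc37a2 probe read 7.29, 6.65 and 7.24 in Ncl-1 +Tc cells, against 5.16, 5.94 and 5.61 in Ncl-1 -Tc cells. The values were 7.48, 6.78 and 7.17 in Ncl-2 +Tc cells, against 5.63, 5.76 and 5.48 in Ncl-2 -Tc cells, and 5.54, 5.18 and 5.60 in EGFP +Tc cells, against 5.56, 5.45 and 5.52 in EGFP -Tc cells. The change was 1.49 ± 0.25 (adjusted p = 0.00135) and 1.52 ± 0.25 (adjusted p = 0.00107). The calls of Slc34a3, Slc37a2 and Slc4a8 held in both lines without each array in turn and without both +Tc arrays of replicate 3.

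Slc27a3, which activates fatty acids and belongs to the fatty acid transport proteins, rose as well. For Slc27a3 the log2 values were 8.88, 9.07 and 10.24 in Ncl-1 +Tc cells, against 6.88, 7.12 and 7.78 in Ncl-1 -Tc cells. Values were 9.01, 8.80 and 10.31 in Ncl-2 +Tc cells, against 6.79, 7.23 and 7.93 in Ncl-2 -Tc cells, and 7.34, 7.19 and 8.20 in EGFP +Tc cells, against 7.14, 7.23 and 8.13 in EGFP -Tc cells. Replicate 3 was brighter in every group, and the groups of each nucleolin line still did not overlap. The change was 2.13 ± 0.48 (adjusted p = 0.0105) in the Ncl-1 line and 2.05 ± 0.48 (adjusted p = 0.0127) in the Ncl-2 line, 4.39-fold and 4.15-fold. Dropping Ncl-1 +Tc array 3 ended the Ncl-1 call, and dropping -Tc array 1 or 2 or +Tc array 3 of the Ncl-2 line ended the other (highest adjusted p = 0.0573 and 0.0568). Slc29a4, a monoamine carrier of the nucleoside family, changed by 1.14 ± 0.31 (adjusted p = 0.0325) and 1.42 ± 0.31 (adjusted p = 0.00897). Its Ncl-1 call was lost without -Tc array 2 or 3 or +Tc array 1 or 3 of that line (highest 0.134) and without both +Tc arrays of replicate 3 (0.0591), and its Ncl-2 call without Ncl-2 -Tc replicate 2 (0.0552). The other nucleoside carriers included Slc29a2, at -0.91 ± 0.35 and -0.73 ± 0.35 (adjusted p = 0.00991 and 0.0323 with the block), lower in contrast to Slc29a4.

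The 16 further amino acid and peptide carriers (families Slc6, Slc15, Slc17, Slc36 and Slc43) held 2 rises in the Ncl-1 line and 0 calls in the Ncl-2 line, or 1 rise (Slc6a7) and 1 fall (Slc6a15) without both +Tc arrays of replicate 3. Slc6a7, a proline carrier, had a log2 signal of 7.84, 7.44 and 6.95 in Ncl-1 +Tc cells, against 6.93, 5.71 and 5.40 in Ncl-1 -Tc cells, and 7.04, 6.64 and 6.75 in Ncl-2 +Tc cells, against 6.74, 5.998 and 6.15 in Ncl-2 -Tc cells. It changed by 1.40 ± 0.39 (adjusted p = 0.0368) in the Ncl-1 line and 0.51 ± 0.39 (adjusted p = 0.552) in the Ncl-2 line. Slc6a13, a carrier of GABA and taurine, changed by 1.14 ± 0.32 (adjusted p = 0.0374) in the Ncl-1 line and 0.54 ± 0.32 (adjusted p = 0.389) in the Ncl-2 line, where it passed with the block (adjusted p = 0.018). Neither gene's response was shown to differ between the lines, since the test of that difference called 0 carriers. Slc6a7 lost its call without -Tc array 2 or 3 or +Tc array 1 or 2 of that line (highest adjusted p = 0.153), and Slc6a13 without -Tc array 2 or 3 or +Tc array 1 or 3 of that line (highest 0.161) or without both +Tc arrays of replicate 3 (0.0681). Slc15a2, a carrier of short peptides, gave 1.53 ± 0.71 and 1.27 ± 0.71 and Slc43a1, a carrier of branched-chain amino acids, -0.63 ± 0.29 and -0.64 ± 0.29, both past the test in both lines only with the block (adjusted p = 0.00335 and 0.0105 for Slc15a2, 0.0472 and 0.0438 for Slc43a1). Slc6a15, a neutral amino acid carrier, was not called by its brightest probe (-0.47 and -1.06), while a dimmer probe gave -1.61 ± 0.29 and -1.65 ± 0.29 and was called in both lines when all probes were fitted.

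Among the 13 zinc carriers (Slc30 and Slc39), Slc30a3, which loads zinc into vesicles, fell and no other passed in either line. The arrays gave 5.60, 5.67 and 5.32 in Ncl-1 +Tc cells, against 6.82, 6.16 and 6.85 in Ncl-1 -Tc cells. It was 5.96, 5.27 and 5.31 in Ncl-2 +Tc cells, against 7.23, 6.62 and 6.85 in Ncl-2 -Tc cells, and 6.92, 7.18 and 7.52 in EGFP +Tc cells, against 7.07, 6.87 and 7.62 in EGFP -Tc cells. Its groups did not overlap in either nucleolin line, and of the uninduced nucleolin arrays Ncl-2 -Tc replicate 1 lay within the EGFP range and the other 5 below it. The change was -1.08 ± 0.28 (adjusted p = 0.0262) in the Ncl-1 line and -1.39 ± 0.28 (adjusted p = 0.00557) in the Ncl-2 line, which left 47.3% and 38.3% of the uninduced signal. Leaving out array 1 or 3 of either Ncl-1 group ended the Ncl-1 call (highest adjusted p = 0.0996), as did leaving out both +Tc arrays of replicate 3 (0.105), while the Ncl-2 call held without each array in turn. With the block 3 zinc carriers rose and 3 fell in each line. Slc30a2, a zinc exporter, gave 1.40 ± 0.65 and 1.76 ± 0.65 (adjusted p = 0.00135 and 0.000194 with the block), and the importer Slc39a6 gave -0.59 ± 0.26 and -0.69 ± 0.26 (0.014 and 0.00532). Slc11a2, an importer of iron and other divalent metals, changed by -0.81 ± 0.26 (adjusted p = 0.0747) in the Ncl-1 line (0.00149 with the block) and -1.04 ± 0.26 (adjusted p = 0.0203) in the Ncl-2 line. Its Ncl-2 call was lost without -Tc array 1 or 2 or +Tc array 2 or 3 of that line (highest 0.0854) and without both +Tc arrays of replicate 3 (0.0781), and its other probes gave -0.97 and -1.18, called in both lines, and 0.41 and 0.04.

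Slc47a1, which exports organic cations in exchange for protons, had +Tc replicates far apart. On the arrays Slc47a1 measured 10.92, 10.76 and 9.51 in Ncl-1 +Tc cells, against 11.77, 11.69 and 11.49 in Ncl-1 -Tc cells. The Ncl-2 line gave 9.13, 9.36 and 10.67 in Ncl-2 +Tc cells, against 11.24, 11.24 and 11.59 in Ncl-2 -Tc cells, and 10.97, 11.13 and 11.18 in EGFP +Tc cells, against 11.08, 11.20 and 11.38 in EGFP -Tc cells. It changed by -1.25 ± 0.38 (adjusted p = 0.0538) in the Ncl-1 line (adjusted p = 0.0183 with the block) and -1.64 ± 0.38 (adjusted p = 0.0123) in the Ncl-2 line. Without both +Tc arrays of replicate 3 these were -0.81 and -2.11 (adjusted p = 0.0306 and 3.93e-05). Slc47a1 was picked above because its replicate 3 values opposed the others. Leaving those arrays out favours smaller p-values for it, so these values are a description. The Ncl-2 call was lost without Ncl-2 +Tc replicates 1 or 2 (highest 0.0709), and the Ncl-1 change was -0.81 without Ncl-1 +Tc replicate 3. Of the 7 organic ion carriers, 1 passed in the Ncl-2 line and 0 in the Ncl-1 line, or 1 in each, Slc47a1, without those arrays.

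The 8 vitamin and folate carriers held 1 call, Slc23a3 in the Ncl-2 line, a relative of the vitamin C carriers. Slc23a3 passed the detection filter only through the induced nucleolin groups, with 1 of 3 arrays detected in each uninduced nucleolin group and 0 of 6 in the EGFP line. The filter thus favours a rise of Slc23a3, and its call is a description. It changed by 0.92 ± 0.32 (adjusted p = 0.0935) in the Ncl-1 line (0.0111 with the block, and a change of 0.50 without both +Tc arrays of replicate 3) and 1.06 ± 0.32 (adjusted p = 0.0497) in the Ncl-2 line. The call was lost without any of 15 arrays, the exceptions being Ncl-1 -Tc replicate 3 and Ncl-1 +Tc replicates 1 and 3 (highest adjusted p = 0.159). With the block the carriers of folate and thiamine moved in opposite directions in both lines: Slc19a1, which takes up reduced folates, gave -0.71 ± 0.26 and -0.82 ± 0.26 (adjusted p = 0.0155 and 0.00604), and Slc19a2, which takes up thiamine, gave 0.77 ± 0.40 and 1.09 ± 0.40 (0.00257 and 0.000154). Of 11 carriers of the Slc2 and Slc5 families (most of them of sugars, others of iodide or vitamins), 5 monocarboxylate carriers and 5 nucleotide sugar carriers, 0 passed in either line (limma), where 1, 2 and 1 in the Ncl-1 line and 1, 0 and 1 in the Ncl-2 line had an unadjusted p under 0.05. The iodide carrier Slc5a5, picked above for its opposed replicate 3 values, rose in the Ncl-2 line without both +Tc arrays of replicate 3. With the block 2, 1 and 0 passed in the Ncl-1 line, and 1, 0 and 1 in the Ncl-2 line. The glucose carriers Slc2a1 and Slc2a3 gave 0.07 ± 0.35 and 0.11 ± 0.33 in the Ncl-1 line and 0.40 ± 0.35 and 0.41 ± 0.33 in the Ncl-2 line. Slc5a1, which takes up glucose with sodium, gave 1.73 ± 0.61 and 1.61 ± 0.61 and passed only with the block (adjusted p = 2.52e-05 and 4.58e-05). It entered the test only through the induced nucleolin groups, which favours a rise, so its calls with the block are a description. The lactate carrier Slc16a1 had no kept probe. Those named here only for a call with the block were chosen after their values were seen.

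**Figure D4:**
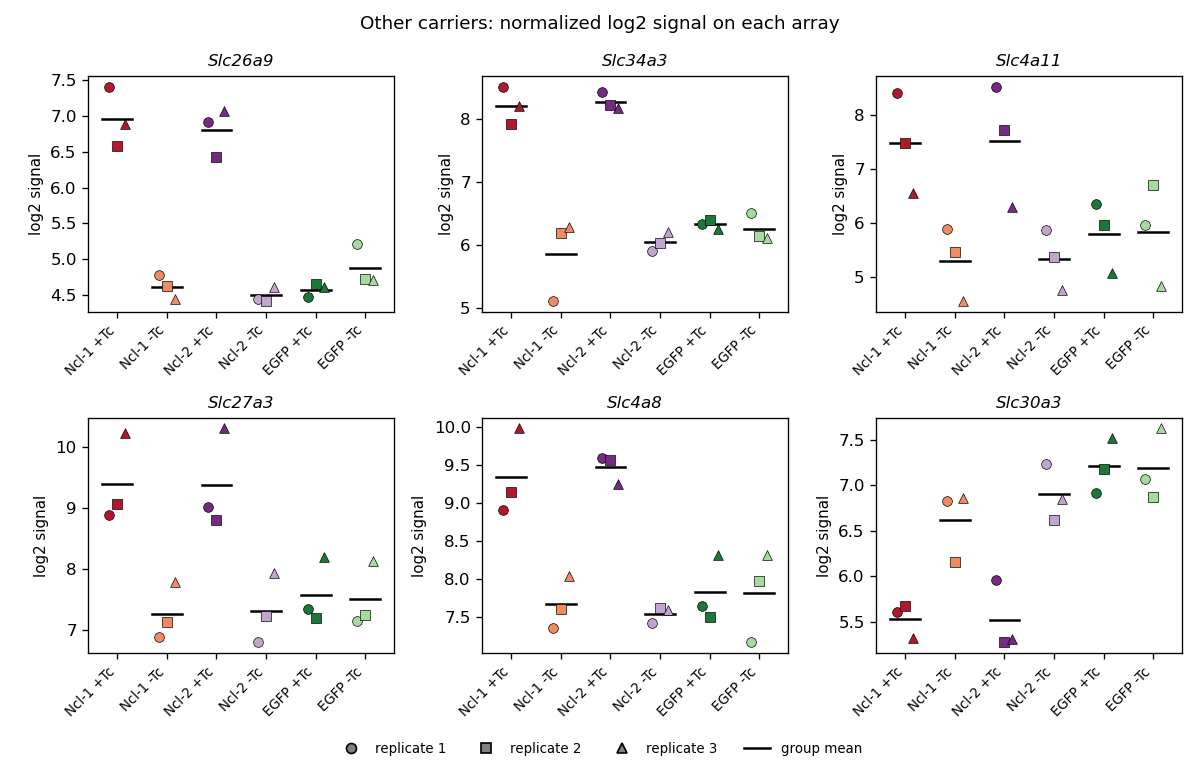
Normalized log2 signal (vertical axis) of 6 carriers of other families on each of 18 arrays in the 6 groups, with circles, squares and triangles for replicates 1, 2 and 3 and a bar for the group mean. Slc26a9, Slc34a3, Slc4a11, Slc27a3 and Slc4a8 lie higher and Slc30a3 lower with Tc in both nucleolin lines, without overlap within a line.

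The responses of the nucleolin lines were alike in direction. Of the carriers called in the Ncl-1 line 81.2% (13 of 16) were also called in the Ncl-2 line, which is 76.5% of the 17 called there, with 10 higher and 3 lower in both. The 3 that fell in both were Slc38a5, Slc7a3 and Slc30a3. The overlap without both +Tc arrays of replicate 3 was 10, with 7 higher and 3 lower. It was 76.9% of the 13 called in the Ncl-1 line and 55.6% of the 18 called in the Ncl-2 line. The 3 that fell were then Slc38a5, Slc7a3 and Slc47a1. With the block 41 were called in both lines, 26 higher and 15 lower. The overlap of calls over all genes is not given here, so these shares are not a result about carriers. The changes had the same sign in both lines for 152 of 176 carriers (86.4%), beside 80.1% of all genes tested, and their Pearson r across carriers was 0.91, beside 0.89 across all genes; genes are not independent replicates, and arrays of both lines share replicate numbers. When the response of the Ncl-2 line was subtracted from that of the Ncl-1 line, 0 carriers passed, 0 had an unadjusted p under 0.05, and with the block 0 passed and 8 had an unadjusted p under 0.05 (limma, 0% of all genes called in both fits). As for the EGFP line, the zeros of the fit without the block do not show an absence of difference. The members of smallest p were Slc22a14 (0.54 ± 0.27), Slc26a2 (-0.76 ± 0.42), Slc6a7 (0.88 ± 0.55), Slc25a16 (-0.91 ± 0.59) and Slc41a3 (-0.55 ± 0.35). Slc22a14 passed the detection filter only through Ncl-1 +Tc cells, so its difference is a description. Slc26a2 passed only through EGFP -Tc cells, with 0 arrays detected in Ncl-1 +Tc and 2 in Ncl-2 +Tc cells. The test of the difference between lines rests on the line labels of replicate 3, and without both of its +Tc arrays 0 carriers passed as well.

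**Figure D5:**
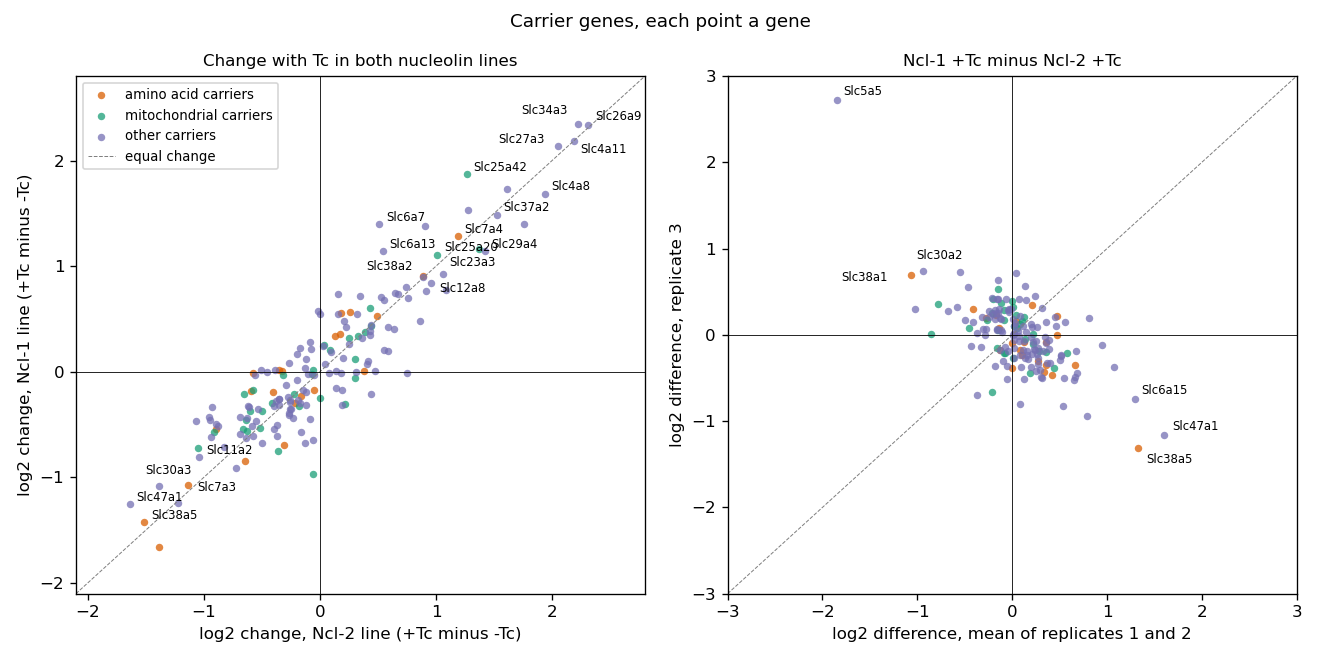
Left, the log2 change (+Tc minus -Tc) of 176 carriers in the Ncl-1 line (vertical axis) against that in the Ncl-2 line (horizontal axis), with the carriers called in either line named. Right, the log2 difference of Ncl-1 +Tc minus Ncl-2 +Tc cells in replicate 3 (vertical axis) against the mean of replicates 1 and 2 (horizontal axis); points would lie along the dashed line if replicates matched, and Slc5a5, Slc47a1 and Slc38a5 lie on the opposite side of 0.

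Compared with the EGFP response, that of the nucleolin lines on average was larger for 5 carriers and smaller for 0, beside 3.29% of all genes tested (2.53% larger and 0.758% smaller). The differences were 2.22 ± 0.33 for Slc34a3 (adjusted p = 0.00147), 1.58 ± 0.30 for Slc37a2 (adjusted p = 0.00874), 1.22 ± 0.24 for Slc7a4 (adjusted p = 0.00929) and 1.80 ± 0.41 (adjusted p = 0.0214) for Slc4a8, by limma. The fifth was Slc26a9, at 2.63 ± 0.29. This is a description with no test, since Slc26a9 entered only through the induced nucleolin groups and was below detection on most other arrays. With the replicate block the counts were 22 and 11, beside 14.3% of all genes (8.85% and 5.48%). Without both +Tc arrays of replicate 3 they were 6 and 3, which added Slc4a11 (2.77), Slc38a5 (-1.45), Slc47a1 (-1.34) and Slc7a3 (-1.20) to the 5, beside 3.9% of all genes (3.07% and 0.834%). Of these, Slc4a11 was favoured by the detection filter, as given above, and Slc38a5 and Slc47a1 were picked for their opposed replicate 3 values. The count was 8 without Ncl-2 +Tc replicate 3. Slc38a2 gave 0.89 ± 0.25 (adjusted p = 0.0721) and Slc38a5 -1.52 ± 0.45 (adjusted p = 0.0886), and both passed with the block (0.0113 and 0.0261). The Slc4a8 call was lost without -Tc array 2 or 3 or +Tc array 1 or 2 of the EGFP line (highest adjusted p = 0.0826).

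The uninduced lines were also compared, since theirs is the level from which Tc acted. No carrier passed the test in Ncl-1 -Tc against EGFP -Tc cells (0 of 176, beside 0.985% of all genes, 0.587% higher and 0.398% lower) or in Ncl-2 -Tc against EGFP -Tc cells (0, beside 0.928%, 0.464% higher and 0.464% lower), while 21 had an unadjusted p under 0.05 in each, and 1 and 2 passed without both +Tc arrays of replicate 3. With the block 4 were higher and 10 lower in the Ncl-1 line (8.62% of all genes called, 4.11% higher and 4.51% lower) and 9 were higher and 17 lower in the Ncl-2 line (12.2% of all genes called, 5.76% higher and 6.43% lower). Both comparisons share the EGFP -Tc arrays, so they are not independent of each other. Slc38a5 was higher by 1.47 ± 0.37 in Ncl-1 -Tc and 1.11 ± 0.37 in Ncl-2 -Tc cells than in EGFP -Tc cells (adjusted p = 0.0168 and 0.0498 with the block). For Slc7a4 these differences were -0.83 ± 0.19 and -0.79 ± 0.19 (0.00881 and 0.0101 with the block). For both genes the change with Tc ran against the difference between uninduced lines. The 2 quantities share the uninduced nucleolin arrays with opposite signs, so error in those arrays alone drives them in opposite directions. Their opposition is therefore a description. For Slc25a20 the differences between uninduced lines were 0.87 ± 0.30 and 0.82 ± 0.30 (0.0039 and 0.00471 with the block), in the direction of its change with Tc. Slc46a3, a carrier of the lysosome, was lower by the same comparison (-1.24 ± 0.48 and -1.32 ± 0.48; 0.0363 and 0.0228 with the block) and changed further with Tc by -1.24 ± 0.48 and -1.22 ± 0.48 (0.0154 and 0.0164). The glutamate carrier Slc1a3 was 0.96 ± 0.24 and 0.81 ± 0.24 (0.00549 and 0.011 with the block), and Slc4a1, the chloride and bicarbonate exchanger of red cells, was -1.14 ± 0.30 and -1.06 ± 0.30 (0.0214 and 0.0254). These genes were named after their values were seen.

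For the wider pathway, 23 of 24 listed genes of the response to amino acid shortage were tested. In the Ncl-1 line 0 rose and 7 fell, beside 5.38% of all genes higher and 2.74% lower. In the Ncl-2 line 0 rose and 8 fell, beside 6% higher and 3.14% lower. With the block 2 rose and 9 fell in the Ncl-1 line, beside 14.2% and 12.5% of all genes. For Ncl-2 the block gave 3 rises and 11 falls, beside 13.9% and 13.1%. The list's median change was -0.51 in the Ncl-1 line and -0.22 in the Ncl-2 line, beside -0.04 and -0.05 for all genes tested. The largest falls were those of Chac1, which breaks down glutathione, by -3.78 ± 0.32 (adjusted p = 5.32e-06) in the Ncl-1 line and -3.79 ± 0.32 (adjusted p = 6.22e-06) in the Ncl-2 line, and of the stress protein gene Nupr1, by -3.17 ± 0.64 (adjusted p = 0.00599) and -3.13 ± 0.64 (adjusted p = 0.00608). Enzymes that make proline, serine and one-carbon units also fell, among them Aldh18a1 (-1.81 ± 0.35 and -2.33 ± 0.35), Psat1 (-1.97 ± 0.50 and -1.80 ± 0.50), Shmt2 (-1.07 ± 0.23 and -1.14 ± 0.23) and Mthfd2 (-1.76 ± 0.28 and -1.60 ± 0.28), all with a call in both lines. Gpt2, an alanine aminotransferase, fell too (-1.07 ± 0.27 and -1.02 ± 0.27), and Nars, an asparaginyl-tRNA synthetase, gave -0.66 ± 0.32 (adjusted p = 0.256) in the Ncl-1 line and fell in the Ncl-2 line by -1.07 ± 0.32 (adjusted p = 0.0467). Of the amino acid carriers, Slc38a5 and Slc7a3 fell beside these enzymes, Slc3a2 did so only with the block, Slc38a2 and Slc7a4 rose, and Slc7a11 and Slc1a4 did not pass the test. Of 44 ATP-binding cassette genes, which encode carriers of another kind, 16 were tested, and 2 rose and 0 fell in each line, or 6 and 2 in the Ncl-1 line and 5 and 2 in the Ncl-2 line with the block. The shares of all genes are those given for the amino acid response list. The 4 genes that match the symbol pattern without being carriers gave 0 calls in either line, with or without the block (medians -0.14 and -0.17).

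Whether a gene passed could depend on the probe that represented it. The 253 kept probes included 73 besides the brightest one of each gene. When all 19154 kept probes were fitted, 13 carrier probes rose and 5 fell in the Ncl-1 line and 11 rose and 9 fell in the Ncl-2 line, beside 5.72% and 6.54% of all probes, with 4 and 6 of these calls on a probe other than the brightest. No gene had probes called in both directions in either line. By detection, 129 of 176 carriers were detected on all arrays of all 6 groups and 11 of only 1 group, with Slc25a43 (0.0449), Slc12a7 (0.0459) and Slc2a10 (0.0470) just inside the detection limit and Slc10a4 (0.0513), a probe of Slc47a2 and one of Slc38a1 (both 0.0556) just outside it. A group of 10 passed the filter only through induced nucleolin groups, among them Slc26a9, Slc4a11, Slc23a3 and Slc5a1, and 12 passed through no induced nucleolin group, among them Slc7a11.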

How the data were processed

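Total RNA of 18 samples was extracted with Trizol and columns with DNase, per the labels' protocols, labelled as biotinylated cRNA and hybridised to 1-colour Illumina mouse BeadChips. Each array's probe intensity and detection p-value, as deposited by the authors, came from GenomeStudio 2010.1 per the submitters' processing notes. No source used here says whether background had been subtracted. Their normalized intensity table, with its method not stated, served only as an alternative.

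From the deposited intensity, normexp removed background, using negative controls that the detection p-values imply and an offset of 16, after which arrays were quantile normalized and log2 taken. Of 45281 probes, 19154 were kept, each detected (p below 0.05) throughout the 3 arrays of some group, and the kept probe of highest mean signal stood for each of 10557 genes. Probes were named from the platform annotation: 34885 had 1 gene symbol, 18 had several and 10378 had none, and probes of the last 2 kinds were not named. All 180 members matched a RefSeq gene. limma 3.58.1 in R 4.3.3 fitted 6 group means on all 18 arrays (two-sided, Benjamini-Hochberg over all genes, threshold 0.05). The fit was tested on simulated data. The precision is limited by 3 arrays per group.

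Groups and replicate numbers come from the sample titles. All 45 pairs of arrays that share a replicate number correlated above 0.1 in their deviations from the group means (0.298 to 0.958), so the numbers were taken to pair the samples, a pairing that comes from the data and the titles' numbers. Values with that number as a block are printed where they change a call.

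Genes named are Ncl, a fixed set of carriers, the called carriers of largest change whose groups did not overlap (up to 10 per class, line and direction), those of smallest p for the contrasts between lines, and called amino acid response genes; other names are said to have been chosen after their values were seen. The members, lists and rules were chosen with earlier results of these data known. Alternatives covered background, offset, normalization, detection filter, probes, array weights, the block, the samples fitted, the authors' table and each array left out.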

Additional observations from a re-analysis of the deposited data

Results flagged for a closer look

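The response to Tc differed between the nucleolin lines and the EGFP line, by a test of the difference itself (limma, mean of both nucleolin lines minus EGFP), for 5 carriers. Slc34a3, a phosphate carrier, differed by 2.22 ± 0.33 on the log2 scale (adjusted p = 0.00147). Slc37a2, a sugar phosphate exchanger, differed by 1.58 ± 0.30 (0.00874), and Slc7a4, a relative of the cationic amino acid carriers, by 1.22 ± 0.24 (0.00929). Slc4a8, a bicarbonate carrier, differed by 1.80 ± 0.41 (0.0214). The fifth, the chloride carrier Slc26a9, differed by 2.63 ± 0.29. It passed the detection filter only through the induced nucleolin groups, with 0 of 6 uninduced nucleolin arrays and 1 of 6 EGFP arrays detected. The filter thus favours a difference for Slc26a9, and this value is a description, not a bound or a test. All 5 were higher with Tc in 3 of 3 replicate numbers of both nucleolin lines.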

How the results depend on the processing

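Counts of called carriers in the Ncl-1 line, the Ncl-2 line and their mean response minus EGFP were 16, 17 and 5. With the replicate block they were 57, 61 and 33, and with array weights 44, 55 and 34. Fitting only the groups compared gave 2 and 6 in the single lines. Replicates 1 and 2 alone gave 35 in the Ncl-2 line and 14 for the mean response minus EGFP, and leaving out both nucleolin +Tc arrays of replicate 3, chosen after seeing the data, gave 9 for the mean response minus EGFP. Leaving out 1 array at a time gave 7 to 18, 8 to 21 and 4 to 8. Ncl-1 -Tc and Ncl-2 -Tc cells against EGFP -Tc cells gave 0 each, and 14 and 26 with the block, 25 and 25 with array weights, 6 and 4 with replicates 1 and 2 alone, 1 and 2 without both arrays of replicate 3, 1 and 1 with the authors' table, 1 and 1 without a detection filter, 2 for Ncl-1 with cyclic loess, and 0 to 2 for Ncl-1 leaving out 1 array. The EGFP line and the Ncl-1 minus Ncl-2 response gave 0 under every alternative run. Of 1306 alternative values of called genes, 180 lost the call and 0 changed sign. Another 1116 stayed called or, for replicate 3 alone, lay within the fit's standard deviation of the value from all arrays. Replicate 3 alone had no test, and 10 of its values moved by more than that. Slc37a2 lost its call against EGFP with replicates 1 and 2 alone, and Slc4a8 with cyclic loess and with the authors' table.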
